A study of Mus musculus with 6 samples.

Results

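The genes described are 8 transcription factors that set up and maintain the identity of the insulin-producing beta cell: Pdx1, Nkx6-1, Nkx2-2, Neurod1, Pax6, Isl1, Foxa2 and Hnf4a. All probe sets that the platform annotation pairs with exactly 1 of these symbols were chosen by that rule, which gave 18 probe sets of 8 genes among 45037 probe sets and 18193 named genes tested. Expression was measured in isolated pancreatic islets on Affymetrix arrays, with 1 array for each of 3 hIAPP-Tg mice (replicates 4 to 6) and 3 wild type mice (replicates 1 to 3), all labelled as 12 weeks old and fed standard chow ad libitum; the series' design text gives an age range that starts at 10 weeks. The hIAPP-Tg mice carry human islet amyloid polypeptide under an Ins2 promoter, so the transgene is driven in beta cells. Both genotypes carry the name FVB/N-Tg(Ins2-IAPP)RFHSoel/J as their strain. All values are log2 RMA values as deposited, rounded to 0.1, and each difference is hIAPP-Tg minus wild type.

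These factors work as a network. Pdx1 and the homeodomain factors Nkx6-1 and Nkx2-2 keep the beta-cell programme on and that of other islet cells off. The basic helix-loop-helix factor Neurod1, the paired-homeodomain factor Pax6 and the LIM-homeodomain factor Isl1 act in all hormone cells and bind the insulin promoter together with Pdx1. The forkhead factor Foxa2 opens chromatin of endodermal genes, Pdx1 among them, and the nuclear receptor Hnf4a controls genes of metabolism and of insulin secretion. Loss of several of these factors in mouse beta cells lowers insulin production or turns beta cells towards other fates.

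The islet label held against beta-cell markers. Ins2 stood at 15.1 on all 6 arrays, the highest value of the table, and Iapp, G6pc2, Slc2a2 and Ucn3 had means of 14.97, 13.63, 13.03 and 11.83 in hIAPP-Tg islets against 14.93, 13.7, 13.4 and 11.97 in wild type islets. Mouse probe sets need not read the human transgene, so the arrays do not check the genotype labels. Across all probe sets 13 passed a limma adjusted p of 0.05 (0.0289%), 12 higher and 1 lower in hIAPP-Tg islets. Markers of other cells moved in different ways. The mean over 33 acinar markers varied between arrays and overlapped, at 8.02 to 9.95 on the hIAPP-Tg and 9.02 to 10.45 on the wild type arrays. That over 32 macrophage markers separated the genotypes, at 7.73 to 7.86 on the hIAPP-Tg and 6.99 to 7.18 on the wild type arrays. Of these, 3 macrophage and 0 acinar markers passed a limma adjusted p of 0.05, beside 0.044% of all genes. The acinar level was also entered as a covariate; the part of macrophages in the values below was not tested.

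None of the 8 genes differed between the genotypes past the test. Of the 18 probe sets, 0 passed a limma adjusted p of 0.05, where the smallest adjusted p was 0.632. At an unadjusted p under 0.05 there was 1, lower in hIAPP-Tg islets, against 7.33% of all probe sets in either direction and 3.51% in the lower direction. The genotypes overlapped for all 18, ties counted as overlap, and did not overlap for 6.66% of all probe sets. Over so few probe sets 0 is near that share, and the count was 2 with quantile normalization. Differences ran from -0.33 to 0.20 with a median of -0.033, beside a median of 0 over all probe sets tested. They were below 0 for 10 probe sets (55.6%, beside 43.6% of all probe sets), above for 5 and at 0 for 3. Probe sets of 1 gene are not independent, and Pax6 alone had 5, all below 0. On the brightest probe set of each gene, 4 genes were below 0 (50%, beside 40.5% of all genes), 3 above and 1 at 0. A mean of at least 7 was reached by 12 of the 18, with a median difference of -0.067. All probe sets at that level had a median of 0.033, with 33.1% below 0. For 14 of the 18 the difference was smaller than the larger of the 2 within-genotype SDs. In bulk islets a change in the number of beta cells and a change in RNA per cell cannot be told apart.

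**Figure D1:**
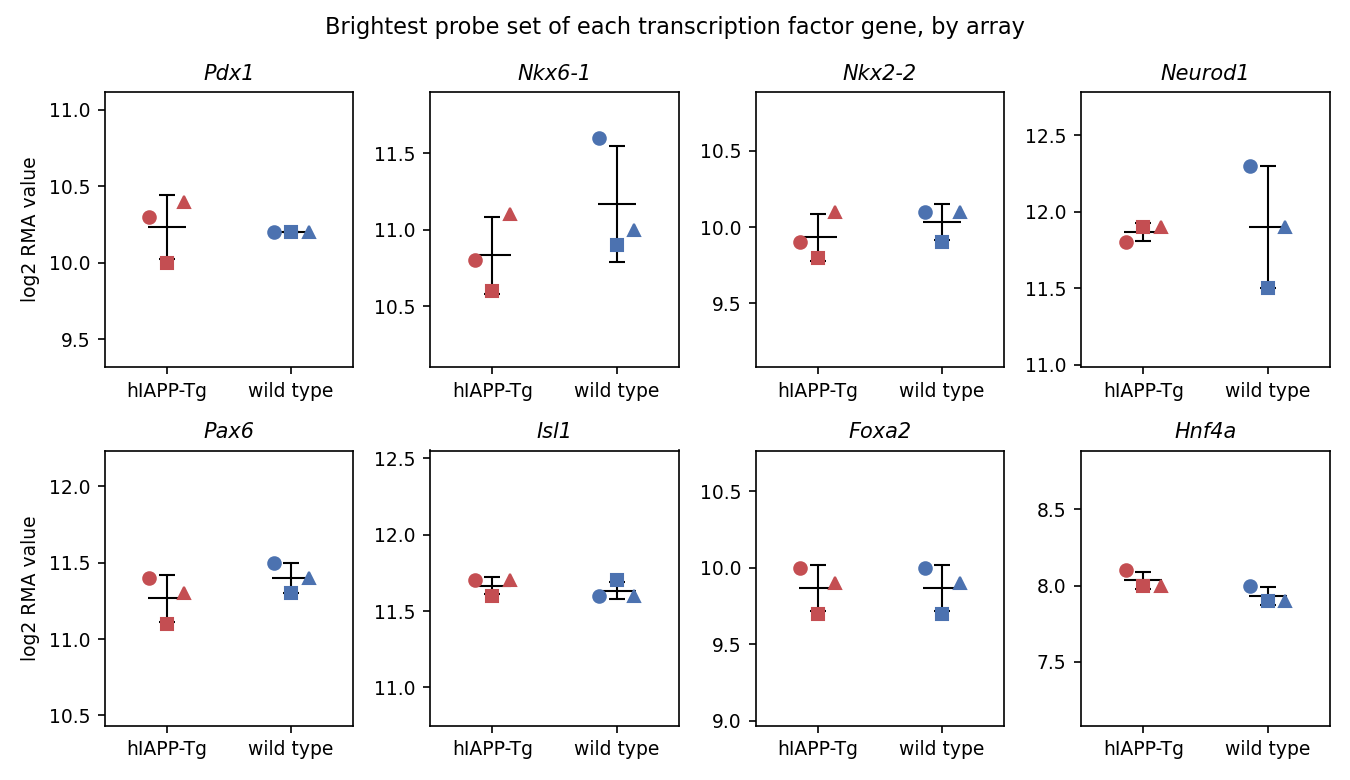
Log2 RMA value (y axis, the same span in every panel) of the brightest probe set of each gene on the 3 hIAPP-Tg arrays (red, left; circle, square and triangle are replicates 4, 5 and 6) and the 3 wild type arrays (blue, right; replicates 1, 2 and 3). Black marks are means with SD (n = 3 each); the genotypes overlap in every panel, with the widest spread in wild type Nkx6-1 and Neurod1.

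Pdx1, the master regulator of pancreas formation and an activator of the insulin gene, was read by 2 probe sets. The brighter one (1422174_at) gave 10.3, 10.0 and 10.4 in hIAPP-Tg islets, against 10.2, 10.2 and 10.2 in wild type islets. The wild type arrays thus lay inside the range of the hIAPP-Tg arrays, and the difference was 0.033 (95% interval -0.23 to 0.30, limma adjusted p = 0.927). The dimmer one (1422173_at) gave 7.5, 7.2 and 7.6 in hIAPP-Tg islets, against 7.4, 7.6 and 7.6 in wild type islets, a difference of -0.10. On both probe sets hIAPP-Tg replicate 5 was the lowest of the 6 arrays and hIAPP-Tg replicate 6 shared or held the highest value.

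Nkx6-1, which represses the alpha-cell programme and sustains insulin secretion, had the largest difference among the 8 genes. Its single probe set stood at 10.8, 10.6 and 11.1 in hIAPP-Tg islets, against 11.6, 10.9 and 11.0 in wild type islets. One wild type array stood above all others, and the remaining 5 lay within 0.5 of each other. The means were 10.83 ± 0.25 in hIAPP-Tg islets (SD, n = 3) and 11.17 ± 0.38 in wild type islets (SD, n = 3), a difference of -0.33 or 0.794-fold. The interval was wide, from 0.553-fold to 1.14-fold (limma adjusted p = 0.720). Without wild type replicate 1 the difference was -0.12.

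Nkx2-2, a repressor of alternative islet fates, had values of 9.9, 9.8 and 10.1 in hIAPP-Tg islets, against 10.1, 9.9 and 10.1 in wild type islets. The highest value was shared by both genotypes, and the difference of -0.10 had a 95% interval of -0.35 to 0.15 (limma adjusted p = 0.818).

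Neurod1, a direct activator of insulin transcription through E-boxes, gave the only probe set of the 18 with an unadjusted p under 0.05. That probe set (1426412_at) read 10.8, 11.0 and 10.9 in hIAPP-Tg islets, against 11.1, 11.2 and 11.0 in wild type islets, and the genotypes met at 11.0. The difference was -0.20 (95% interval -0.40 to -0.00079, unadjusted p = 0.0493 and adjusted p = 0.632 in limma). It kept an unadjusted p under 0.05 in only 2 of the 6 fits that left out an array. Those were the fits without wild type replicate 3 and without hIAPP-Tg replicate 5. It lost this in 4, with p up to 0.129 in limma. Of 9 other settings 4 kept it. The smallest p came with quantile normalization, at a difference of -0.27 (unadjusted p = 0.00891 and adjusted p = 0.579 in limma). The brighter Neurod1 probe set (1426413_at) did not share the pattern. It read 11.8, 11.9 and 11.9 in hIAPP-Tg islets, against 12.3, 11.5 and 11.9 in wild type islets, so the wild type arrays lay on both sides, and the difference was -0.033 (95% interval -0.50 to 0.43). Without wild type replicate 1 it was 0.17.

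Pax6, needed for hormone gene expression in all islet cell types, was read by 5 probe sets, all of which differed by less than 0. The brightest (1419271_at) had 11.4, 11.1 and 11.3 in hIAPP-Tg islets, against 11.5, 11.3 and 11.4 in wild type islets. Its ranges overlapped, with a difference of -0.13 and a 95% interval of -0.37 to 0.10 (limma adjusted p = 0.770). The largest Pax6 difference, -0.23, was that of 1452526_a_at, which stood at 9.1, 8.8 and 8.7 in hIAPP-Tg islets, against 8.9, 9.3 and 9.1 in wild type islets. The other 3 probe sets differed by -0.20, -0.10 and -0.033, and that with -0.033 lay below 5.7, the median of all values, on all 6 arrays. The 5 probe sets read 1 gene on the same arrays and are not independent. Their mean was 7.88, 7.68 and 7.66 in hIAPP-Tg islets, against 7.86, 7.96 and 7.82 in wild type islets, and the exact permutation test over the 6 arrays gave a two-sided p = 0.3.

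Isl1, a LIM-homeodomain factor of all hormone cells, varied by no more than the rounding step of 0.1 on its brightest probe set, with an SD of 0.058 in either genotype. That probe set (1450723_at) read 11.7, 11.6 and 11.7 in hIAPP-Tg islets, against 11.6, 11.7 and 11.6 in wild type islets. Its 95% interval ran from 0.921-fold to 1.14-fold around a difference of 0.033 (limma adjusted p = 0.908). The second Isl1 probe set (1422720_at) had the same mean of 10.73 in both genotypes, with 10.7, 10.7 and 10.8 in hIAPP-Tg islets, against 11.0, 10.5 and 10.7 in wild type islets.

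Foxa2, the pioneer factor upstream of Pdx1, had the same 3 values in both genotypes. They were 10.0, 9.7 and 9.9 in hIAPP-Tg islets, against 10.0, 9.7 and 9.9 in wild type islets, so the difference was 0 with a 95% interval of -0.27 to 0.27 on the log2 scale.

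Hnf4a had 3 of its 4 probe sets above 0 and 1 at 0. The brightest of its 4 probe sets (1427001_s_at) read 8.1, 8.0 and 8.0 in hIAPP-Tg islets, against 8.0, 7.9 and 7.9 in wild type islets, a difference of 0.10 that equals the rounding step (limma adjusted p = 0.720). The next (1450447_at) read 6.5, 6.6 and 6.6 in hIAPP-Tg islets, against 6.5, 6.4 and 6.4 in wild type islets, with a difference of 0.13 (unadjusted p = 0.0759 in limma). The genotypes met at 8.0 and at 6.5, and nowhere did they separate. The 2 dimmest probe sets, near the median of all values or below it, differed by 0.20 and 0. Averaged over its 4 probe sets, Hnf4a stood at 6.425, 6.4 and 6.325 in hIAPP-Tg islets, against 6.225, 6.3 and 6.3 in wild type islets. Only in this average did the genotypes separate, by 0.11, with an exact permutation p = 0.1, the smallest that 3 arrays against 3 can give. For the other 7 genes that test gave p of 0.3 to 1.

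Mouse Hnf4a is transcribed from separate starts, of which the upstream one is the main one in beta cells and the downstream one in liver. The files do not say which transcript each probe set reads. The 250 bases before both starts are shown because the 4 probe sets of Hnf4a need not report the same transcript. They are from RefSeq (GRCm38.p6, plus strand, chr2:163506607-163506856 for the upstream and chr2:163546905-163547154 for the downstream start), with capitals for TAAT, the core bound by homeodomain factors such as Pdx1, on either strand.
Hnf4a upstream start: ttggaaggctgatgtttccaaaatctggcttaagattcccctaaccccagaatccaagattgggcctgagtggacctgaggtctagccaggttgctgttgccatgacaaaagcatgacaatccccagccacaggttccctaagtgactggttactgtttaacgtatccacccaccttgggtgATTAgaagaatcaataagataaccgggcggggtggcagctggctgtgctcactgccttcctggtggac
Hnf4a downstream start: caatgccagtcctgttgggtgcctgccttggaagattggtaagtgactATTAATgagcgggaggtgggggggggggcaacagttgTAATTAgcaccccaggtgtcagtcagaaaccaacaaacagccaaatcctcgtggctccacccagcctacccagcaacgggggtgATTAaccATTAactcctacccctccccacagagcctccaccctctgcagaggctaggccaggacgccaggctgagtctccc
The upstream window holds 1 TAAT match and the downstream window 6, counted on both strands with overlaps. Over the 12 RefSeq windows of the 8 genes, 8 windows of 5 genes hold TAAT, which 54.9% of all 32851 windows of this length also hold.

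**Figure D2:**
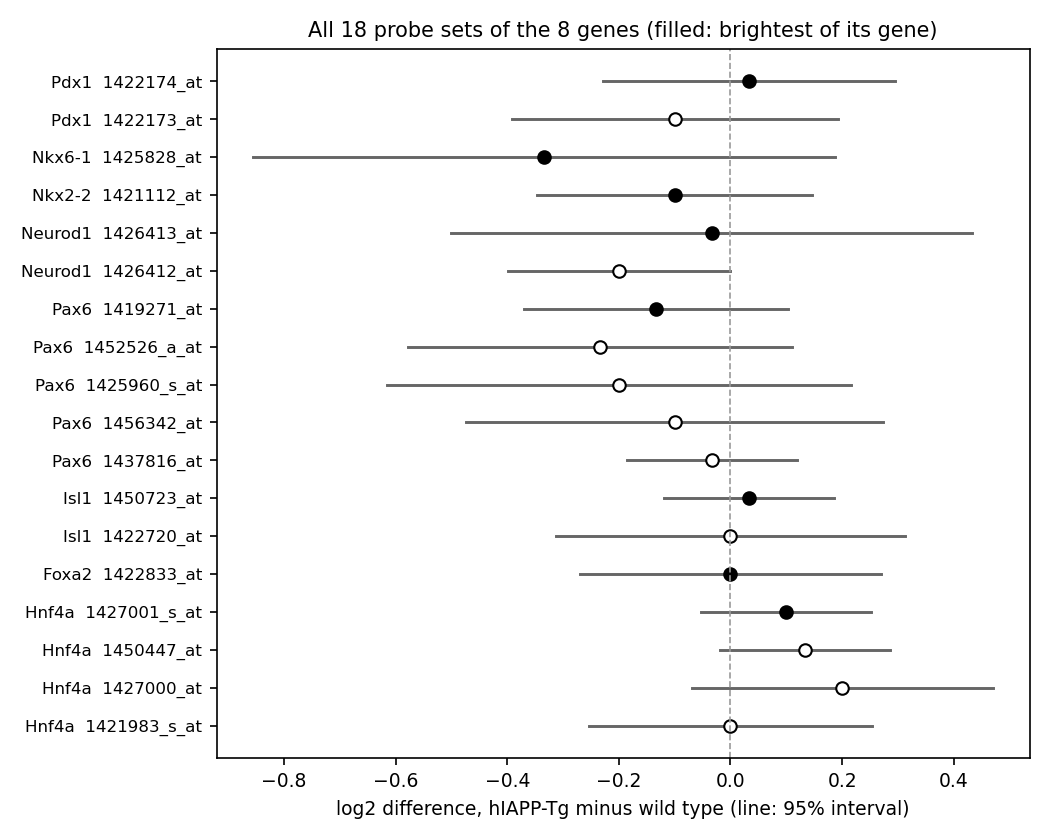
Log2 difference, hIAPP-Tg minus wild type (x axis), of all 18 probe sets by gene; points are limma estimates (filled for the brightest probe set of a gene) and lines their unadjusted 95% intervals. Estimates lie between -0.33 and 0.20, and 17 of the 18 intervals include 0; the exception, the dimmer Neurod1 probe set, ends at -0.00079.

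The unadjusted 95% intervals show how precisely each difference was estimated, not the size of change that would have passed the adjusted p. Over the 18 probe sets their half-width was 0.15 to 0.52 on the log2 scale, with a median of 0.27. Differences larger than this did not always pass in other genes. The dimmer Insm1 probe set differed by -0.67 (95% interval -0.96 to -0.37, limma adjusted p = 0.350). Npy differed by -1.37 (95% interval -2.19 to -0.54, limma adjusted p = 0.503). For 16 of the 18 probe sets the interval lay within a 1.5-fold change in either direction. The exceptions were Nkx6-1, which reached down to 0.553-fold, and a Pax6 probe set (1425960_s_at), which reached down to 0.653-fold. These intervals cover the spread between mice on these arrays only, and 3 arrays per genotype limit them.

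Some arrays stood at the end of their genotype for several of the genes. In hIAPP-Tg replicate 5 the value was the lowest of its genotype for 6 of the 8 genes and, ties aside, the highest for 0. In wild type replicate 1 it was the highest of its genotype for 5 genes, by 0.43 over the genotype mean for Nkx6-1 and 0.40 for Neurod1, and wild type replicate 2 was the lowest for 5. The same counts over all genes were not made, so these ranks are not shown to be particular to the 8 genes. The mean over 44 other islet transcription factors was also lowest of its genotype in hIAPP-Tg replicate 5 (7.36) and highest in wild type replicate 1 (7.51). The mean over 41 partners of the factors was the highest of its genotype in both arrays (8.21 and 8.16). Both hIAPP-Tg replicate 5 and wild type replicate 1 had the lowest acinar marker level of their genotype, 8.02 and 9.02. With the acinar marker level as a covariate, 0 probe sets of the 8 genes passed an adjusted p in limma. At an unadjusted p under 0.05 there were 2, the dimmer Neurod1 probe set at -0.26 and the Hnf4a probe set 1427000_at at 0.30. The share of all probe sets at an unadjusted p in that fit is not given here, so this count has no background beside it.

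**Figure D3:**
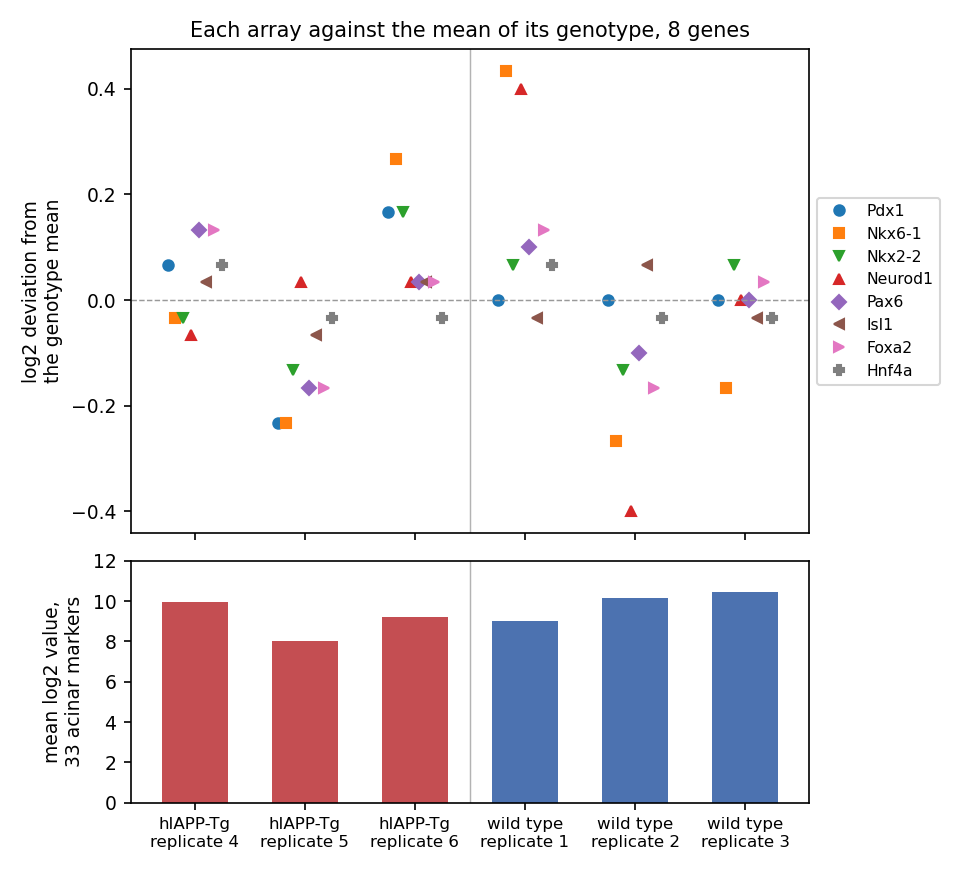
Top, log2 deviation of the brightest probe set of each of the 8 genes from the mean of its own genotype (y axis), by array; bottom, mean log2 value over 33 acinar markers on the same arrays, hIAPP-Tg in red and wild type in blue. Points of hIAPP-Tg replicate 5 lie mostly below 0 and those of wild type replicate 1 mostly above, while both arrays have the lowest bar of their genotype.

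For likeness of pattern Hnf4a was taken, since its brightest probe set had the smallest unadjusted p of the 8 (0.160). Over the 6 arrays Coa5, Fntb, Iqgap1, Ern1 and Rundc3a had a Pearson correlation of 1 with it. Each moved by the same rounding steps, and 6 of 10641 genes compared reached this value.

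No other islet transcription factor on the list passed the test. Of 52 listed 44 were measured, and 27 of them were below 0 (61.4%, beside 40.5% of all 18193 genes), 13 above and 4 at 0. The median difference was -0.05, less than the rounding step, beside 0 over all genes. At an adjusted p in limma there were 0, beside 0.044% of all genes. At an unadjusted p under 0.05 there were 4 lower and 2 higher in hIAPP-Tg islets, beside 3.45% and 5.02% of all genes. Insm1, a zinc-finger factor that works with Neurod1 and Foxa2 in beta cells, had the lowest brightest-probe-set difference of this list. It read 11.6, 10.6 and 11.1 in hIAPP-Tg islets, against 11.5, 11.5 and 11.6 in wild type islets, so 1 hIAPP-Tg array was as high as wild type (-0.43, limma adjusted p = 0.683). Its dimmer probe set read 10.2, 9.8 and 10.2 in hIAPP-Tg islets, against 10.8, 10.7 and 10.7 in wild type islets. There the genotypes did not overlap (-0.67, limma unadjusted p = 0.00127, adjusted p = 0.350).

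Factors of other islet cells were among those with a small unadjusted p. Hhex, the delta-cell factor, had 8.0, 7.9 and 8.1 in hIAPP-Tg islets, against 8.4, 8.3 and 8.3 in wild type islets, without overlap (-0.33, limma adjusted p = 0.431). Irx2, an alpha-cell factor, had 7.0, 6.8 and 6.9 in hIAPP-Tg islets, against 7.2, 7.1 and 7.1 in wild type islets (-0.23, limma adjusted p = 0.552). Pou3f4, also of alpha cells, had 5.7, 5.6 and 5.6 in hIAPP-Tg islets, against 5.5, 5.4 and 5.3 in wild type islets, all at or below the median of all values, and its second probe set differed by -0.033. The orphan receptor Esrrg, a factor of mature beta-cell metabolism, differed by 0.23 and the thyroid hormone receptor Thrb, below that median, by -0.37. Neurog3, the inducer of endocrine fate in the embryo, differed by -0.27 on an overlapping probe set, and Foxa1, the relative of Foxa2, by 0.17 at a level below that median. The list of other hormone cells, which shares Hhex, Irx2 and Pou3f4 with these factors, had a median of -0.033 over 26 genes, of which 0 passed.

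No partner of the 8 factors passed the test either. Of 41 measured, 26 were above 0 and 12 below with a median of 0.033, and 0 passed an adjusted p in limma. At an unadjusted p under 0.05 there was 1 higher and 3 were lower, 9.76% in all, near the 8.48% of all genes. Ldb1, the adaptor that joins Isl1 to its co-regulators, had 7.4, 7.3 and 7.4 in hIAPP-Tg islets, against 7.6, 7.5 and 7.5 in wild type islets. Ssbp4, of the family that stabilises Ldb1, had 7.8, 7.9 and 7.6 in hIAPP-Tg islets, against 7.4, 7.4 and 7.4 in wild type islets. The genotypes overlapped for neither, and the differences were -0.17 for Ldb1 and 0.37 for Ssbp4 (limma adjusted p = 0.620 and 0.471).

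**Figure D4:**
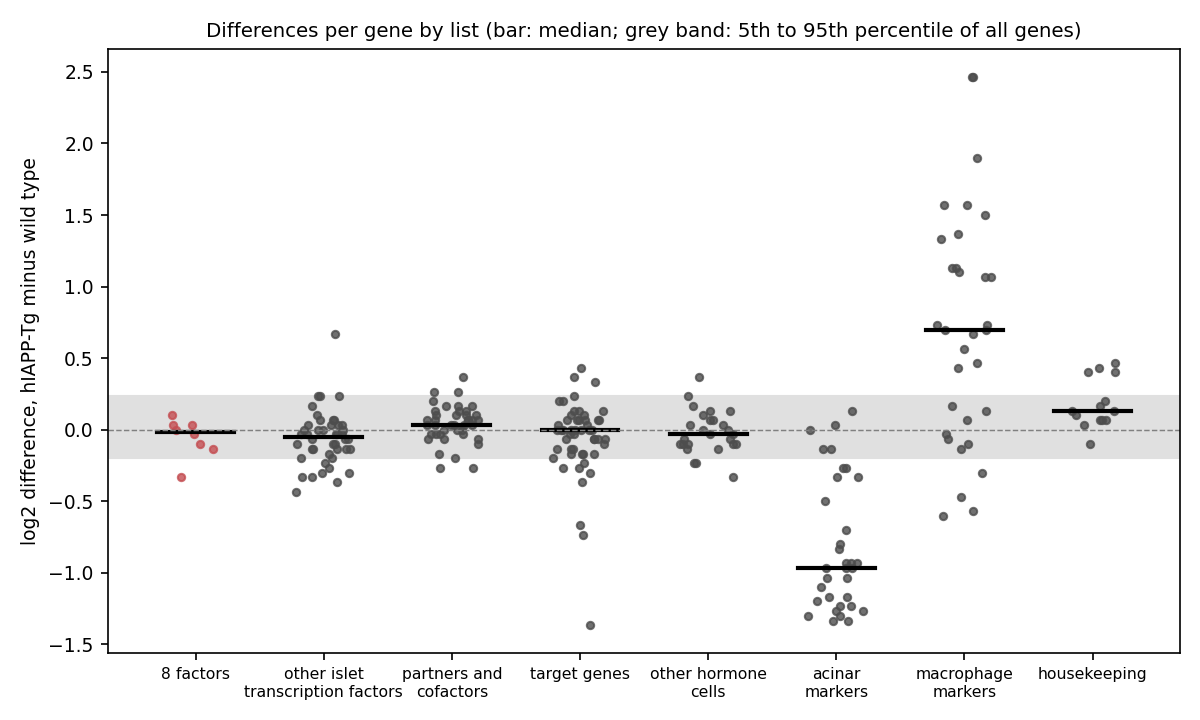
Log2 difference, hIAPP-Tg minus wild type (y axis), of the brightest probe set of each gene, by list; bars are list medians and the grey band is the 5th to 95th percentile of all 18193 genes. The 8 factors (red) and the lists of other factors, partners and targets have medians of -0.05 to 0.033, against -0.97 for acinar markers (-0.28 without hIAPP-Tg replicate 5) and 0.70 for macrophage markers.

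Target genes of the factors were set beside them. The transgene is driven by an Ins2 promoter, whose sequence was not at hand, so the separate insulin gene Ins1 is printed. The mouse Iapp and Ins1 upstream regions are shown as textbook targets of these factors. Both are the 250 bases before the RefSeq start (GRCm38.p6, plus strand; Iapp chr6:142298175-142298424, Ins1 chr19:52264047-52264296). Capitals mark TAAT, the Neurod1-type E-box CATCTG and the forkhead motifs TATTTAC and TGTTTAC, on either strand.
Iapp: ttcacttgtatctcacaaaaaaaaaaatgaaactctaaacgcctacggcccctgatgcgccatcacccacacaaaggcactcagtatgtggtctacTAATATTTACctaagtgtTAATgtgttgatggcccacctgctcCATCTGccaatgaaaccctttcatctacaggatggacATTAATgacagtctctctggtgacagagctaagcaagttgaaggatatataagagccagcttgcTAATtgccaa
Ins1: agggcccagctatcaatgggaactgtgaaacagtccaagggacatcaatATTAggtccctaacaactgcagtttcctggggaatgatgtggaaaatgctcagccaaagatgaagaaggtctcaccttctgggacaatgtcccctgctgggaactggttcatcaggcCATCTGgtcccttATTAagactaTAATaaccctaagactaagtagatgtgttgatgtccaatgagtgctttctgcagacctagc
Iapp holds 5 TAAT matches, 1 CATCTG and 1 forkhead motif, which overlaps a TAAT, and Ins1 holds 3, 1 and 0. Of all windows, 54.9% hold TAAT, 14.4% CATCTG and 5.76% a forkhead motif. A match is a stretch of letters and not a measured binding site. Ins1 itself is not analysed here.

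Of 60 target genes listed 51 were measured, with 24 below 0, 19 above and a median of 0. None passed an adjusted p in limma, and 5 were lower and 3 higher at an unadjusted p under 0.05, beside 3.45% and 5.02% of all genes. Slc2a2, the glucose transporter gene activated by Pdx1, had 13.3, 12.7 and 13.1 in hIAPP-Tg islets, against 13.3, 13.5 and 13.4 in wild type islets. Only the value of hIAPP-Tg replicate 4 reached the wild type range (-0.37, limma adjusted p = 0.632). G6pc2, the islet glucose-6-phosphatase gene, had 13.8, 13.5 and 13.6 in hIAPP-Tg islets, against 13.8, 13.7 and 13.6 in wild type islets. The brightest Iapp probe set had 14.9, 15.0 and 15.0 in hIAPP-Tg islets, against 14.9, 15.0 and 14.9 in wild type islets. Iapp and Ins2 lie so near the top of the RMA scale that a difference could be compressed.

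The genotypes did not overlap for 4 targets that were lower and 2 that were higher in hIAPP-Tg islets, beside 3.22% and 4.49% of all genes. Npy, a neuropeptide gene, had 9.7, 8.7 and 8.9 in hIAPP-Tg islets, against 10.0, 11.0 and 10.4 in wild type islets (-1.37, limma adjusted p = 0.503). Trpm5, a calcium-activated cation channel gene, had 9.5, 9.5 and 9.6 in hIAPP-Tg islets, against 9.7, 10.6 and 10.3 in wild type islets (-0.67, limma adjusted p = 0.557), and its other probe sets differed by -0.77 and -0.50. The imprinted Nnat differed by -0.73, and Sphk1, near the floor, by -0.30. Higher were Entpd3, an ectonucleotidase gene of mature beta cells, with 10.5, 10.7 and 10.5 in hIAPP-Tg islets, against 9.9, 10.3 and 10.2 in wild type islets, and the granule gene Chgb, by 0.43 and 0.20 (limma adjusted p = 0.521 and 0.552). Among housekeeping genes 13 of 14 were above 0, with a median of 0.13 (0.11 with quantile normalization and 0.067 with averaged probe sets). No test was made between this list and the 8 factors.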

How the data were processed

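Log2 expression values of 6 arrays, 3 hIAPP-Tg and 3 wild type, were used as the authors deposited them. Per the submitters' processing notes they were made with RMA in the affy package, with versions not given in the sources used here. RMA compresses differences at both ends of the scale. The values ran from 2.9 to 15.1 with a median of 5.7 on every array. Arrays have no read depth, and their number limits the precision.

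After 64 control probe sets were left out, 45037 were tested in R 4.3.3 by limma 3.58.1 without covariates (moderated, two-sided, Benjamini-Hochberg adjustment over all of them, threshold 0.05). The labels name a separate mouse for each array. Gene names came from the platform annotation, looked up by Entrez number in RefSeq (GRCm38.p6), which changed 0 symbols. For values per gene the brightest probe set, by its mean over the 6 arrays, was taken. Ties counted as overlap between genotypes. The members, the 10 gene lists and the tests were chosen with earlier results of these data known.

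All probe sets of the 8 genes were named. From the lists of factors, partners and targets, genes past the threshold and up to 4 per direction with an unadjusted p under 0.05 and no overlap were named, with Insm1, Neurog3, Foxa1, Ins2, Iapp, Slc2a2 and G6pc2 always. The beta-cell marker Ucn3 and the second probe sets given were added after their values were seen. Some listed genes are not analysed here. Alternatives were filters on dim probe sets, quantile normalization, centring on medians, other priors, array quality weights, no moderation, averaged probe sets, an acinar covariate and leaving out each array. The fit was also run on simulated data with planted differences, drawn as independent normal values without array effects. That run checked the code only, and its outcome is not given here. Python 3.11.15 with matplotlib 3.10.9 drew the figures.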

Additional observations from a re-analysis of the deposited data

How the results depend on the processing

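No probe set of the 8 genes passed an adjusted p of 0.05 in any of the 16 alternatives. The number with an unadjusted p under 0.05, 1 as reported, was 0 with either filter on dim probe sets, with a robust prior and with averaged probe sets, 2 with the acinar covariate, and 0 to 2 when an array was left out. With array quality weights, without moderation, without wild type replicate 1 and without hIAPP-Tg replicate 4 it was again 1, but there the Hnf4a probe set 1450447_at, higher in hIAPP-Tg islets, had it (p of 0.0309, 0.0474, 0.0318 and 0.0334 in limma) and the Neurod1 probe set 1426412_at did not (p of 0.0905, 0.0705, 0.0981 and 0.129). The number whose genotypes did not overlap, 0 as reported, was 2 with quantile normalization, 1 with averaged probe sets and 1 to 2 when an array was left out. The matching shares of all probe sets are not given for these alternatives, so neither number is set against a background. The median difference of -0.033 over the 18 probe sets became -0.075 with quantile normalization, -0.10 over those above the median of all values, and -0.075 to -0.017 when an array was left out. That of the other islet factors became -0.10 with that filter, -0.098 with the acinar covariate and -0.083 to -0.033 when an array was left out. That of the partners became -0.0069 with the acinar covariate, and that of the targets was -0.067 to 0 when an array was left out. Small differences changed sign: Pdx1 became -0.022 with quantile normalization, -0.033 with averaged probe sets and -0.05 to 0.15 when an array was left out. Isl1 became -0.033 with quantile normalization, and Neurod1 ran from -0.23 to 0.17 when an array was left out. The dimmer Pdx1 probe set became 0.032 with the acinar covariate and ran from -0.18 to 0.017 when an array was left out, and the Pax6 probe set 1456342_at became 0.019 with array quality weights and ran from -0.25 to 0.05. The median of the acinar markers ran from -1.53 to -0.28 when an array was left out, and that of the macrophage markers became 0.44 with averaged probe sets and 1.08 at a mean of at least 7. The cause of these changes was not tested. Over all probe sets the 13 calls became 30 with quantile normalization, 51 with a robust prior, 26 with array quality weights, 128 without moderation, 3 with the acinar covariate and 1 to 4 when an array was left out. No paired analysis was made because the labels name no pairing of mice between the genotypes.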
